A study of Homo sapiens with 9 samples.

Results

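Integrins are receptors of an alpha and a beta subunit that hold cells to their extracellular matrix, and laminins are trimers of an alpha, a beta and a gamma chain that form the sheet of basement membranes. The genes described here are the integrin subunits, the laminin chains and 4 basement membrane linkers (NID1, NID2, HSPG2 and AGRN). They were chosen by gene symbol, with no measured value in the rule, although earlier results of these data were known. They are 42 of the 25593 loci in each deposited table: 18 integrin alpha subunits, 8 beta subunits, 12 laminin chains and the 4 linkers. The data are RNA-seq of 9 neural crest-like cultures derived from the established embryonic stem line H9, 3 in each of 3 media. All cells had first been differentiated for 6 days with 10 µM SB431542, an inhibitor of the type I receptors for TGF-β, Activin and Nodal. By the growth protocol, the sort that followed took CD271-high, CD73-negative cells, which were plated on fibronectin under 5% oxygen, although the cell type label gives both markers as positive. The 3 groups differed in what followed. F_FSB cells were expanded for 4 passages with FGF2 and SB431542 and then for 3 more with FGF2 alone. FSB cells received FGF2 and SB431542 throughout, and F cells received FGF2 alone after the sort. FGF2 was given at 5 to 10 ng/ml and SB431542 at 3 to 5 µM, and the cultures were harvested at passage 6 to 7. H9 is 1 line, and the design text calls the cultures biological replicates without saying how separately they were derived. The p-values therefore measure only the spread between these cultures.

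As background, an integrin's subunits decide what it binds. ITGB1 pairs with most alpha subunits; with ITGA5 it makes the main fibronectin receptor, with ITGA1, ITGA2, ITGA10 or ITGA11 it makes collagen receptors, and with ITGA3, ITGA6 or ITGA7 laminin receptors. ITGAV pairs with several beta subunits to read the RGD motif of vitronectin, fibronectin and latent TGF-β. Nidogens tie laminin to collagen IV, and perlecan (HSPG2) and agrin (AGRN) add heparan sulfate chains. Cranial crest cells migrate along fibronectin and laminin, and their mesenchymal progeny build matrix of their own.

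Levels are the FPKM values deposited by the authors, fragment counts scaled for transcript length and library size, so genes can be set side by side. Tests used limma on log2(FPKM + 1) over all genes with at least 1 FPKM in 3 libraries, with Benjamini-Hochberg adjustment over the 13216 genes tested and a threshold of 0.05. Log2 differences, given with their SE, are on that scale, and it understates changes of low genes. The tables hold no fragment counts; relative depth, a rough estimate from the smallest values, placed F_FSB replicate 2 at 58.9% of the deepest library and the remaining 8 at 81.1% to 100%. F_FSB replicate 2 also had a higher FPKM sum than the others, 506146 against 361026 to 395596, in which 1 locus took 111389. F replicate 1 correlated across genes, which are not replicates, at 0.967, 0.929 and 0.953 with the F_FSB libraries and at 0.944 and 0.943 with the other F libraries. Of the genes that name the cells, NGFR, which encodes CD271, had 1.5, 5.92 and 7.26 FPKM in F_FSB libraries, 134, 123 and 104 FPKM in FSB libraries and 0.725, 41.3 and 18.0 FPKM in F libraries. NT5E, which encodes CD73, had 68.1, 46.2 and 74.8 FPKM in F_FSB libraries, 24.3, 26.5 and 9.26 FPKM in FSB libraries and 63.2, 99.1 and 56.4 FPKM in F libraries. NGFR was at 104 FPKM or more in FSB and at 41.3 FPKM or less elsewhere, while NT5E was detected in every library and was lowest in FSB. Over a list of 10 crest genes the summed level was 141 to 166 FPKM in F_FSB, 429 to 465 FPKM in FSB and 169 to 199 FPKM in F; the crest factors SOX10 and FOXD3 stood at or below 1.69 and 0.025 FPKM. In bulk RNA, fewer cells of a type and less RNA per cell cannot be told apart.

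Integrin and laminin genes differed between the media in both directions. In FSB against F, the collagen receptor subunit ITGA1, the nephronectin receptor subunit ITGA8, the laminin chain LAMA1 and both nidogens rose, and the main laminin beta chain LAMB1 and the fibronectin receptor subunit ITGA5 fell. Of the 42 genes 30 passed the filter on low values and were tested. In FSB minus F 10 of these 30 were higher, 9 were lower and 11 did not pass; the 19 that passed are 63.3% of the 30, while 41.9% of all genes tested passed (28.5% higher and 13.4% lower). After the inhibitor was withdrawn, in F_FSB minus FSB, 9 were higher, 10 were lower and 11 did not pass, again 63.3%, beside 41.8% of all genes tested (13.7% higher and 28.2% lower). These shares are descriptions, since ITGA2, ITGA9, ITGB2 and LAMA1 would not have passed the filter without their FSB libraries, nor ITGA10 without its F libraries. Without FSB replicate 1 or without FSB replicate 2, 6 were higher in FSB minus F, and without any 1 of the FSB libraries 6 were lower in F_FSB minus FSB. LAMA1 and ITGB2 were not tested in any of these cases, while ITGA2 and ITGA3 lost their calls in FSB minus F and ITGA8 and ITGAE in F_FSB minus FSB. The libraries of FSB and F did not overlap for 19 of the 30 (10 higher and 9 lower), beside 57.9% of all genes tested (38.7% higher and 19.2% lower), and those of F_FSB and FSB for 21 (11 higher and 10 lower), beside 55.8% (19.2% higher and 36.6% lower). The FSB libraries are part of both comparisons, with opposite signs, which favours opposite directions for any gene. Read side by side, 8 genes were higher in FSB minus F and lower in F_FSB minus FSB, 7 were lower and then higher, and none moved the same way in both. The same count over all genes is not given here, so the reversal is not shown to be particular to these genes. The genes in the first set are ITGA1, ITGA6, ITGA8, ITGA9, ITGB2, LAMA1, NID1 and NID2, and those in the second include ITGA5, ITGB5, LAMA2, LAMA4, LAMA5 and LAMB1. The median log2 difference of the 30 genes was 0.08 in FSB minus F and 0.22 in F_FSB minus FSB, and that of all genes tested was 0.14 and -0.13; with scaling by median ratios the all-gene median was 0.0061 in FSB minus F, and 2436 genes were then higher and 2422 lower, against 3763 and 1773 as deposited, while in F_FSB minus FSB 2456 were higher and 2566 lower, against 1805 and 3722. The 12 genes not tested are ITGA2B, ITGAD, ITGAL, ITGAM, ITGAX, ITGB4, ITGB6, ITGB7, LAMA3, LAMB3, LAMB4 and LAMC3, with group means of at most 2.62 FPKM.

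**Figure D1:**
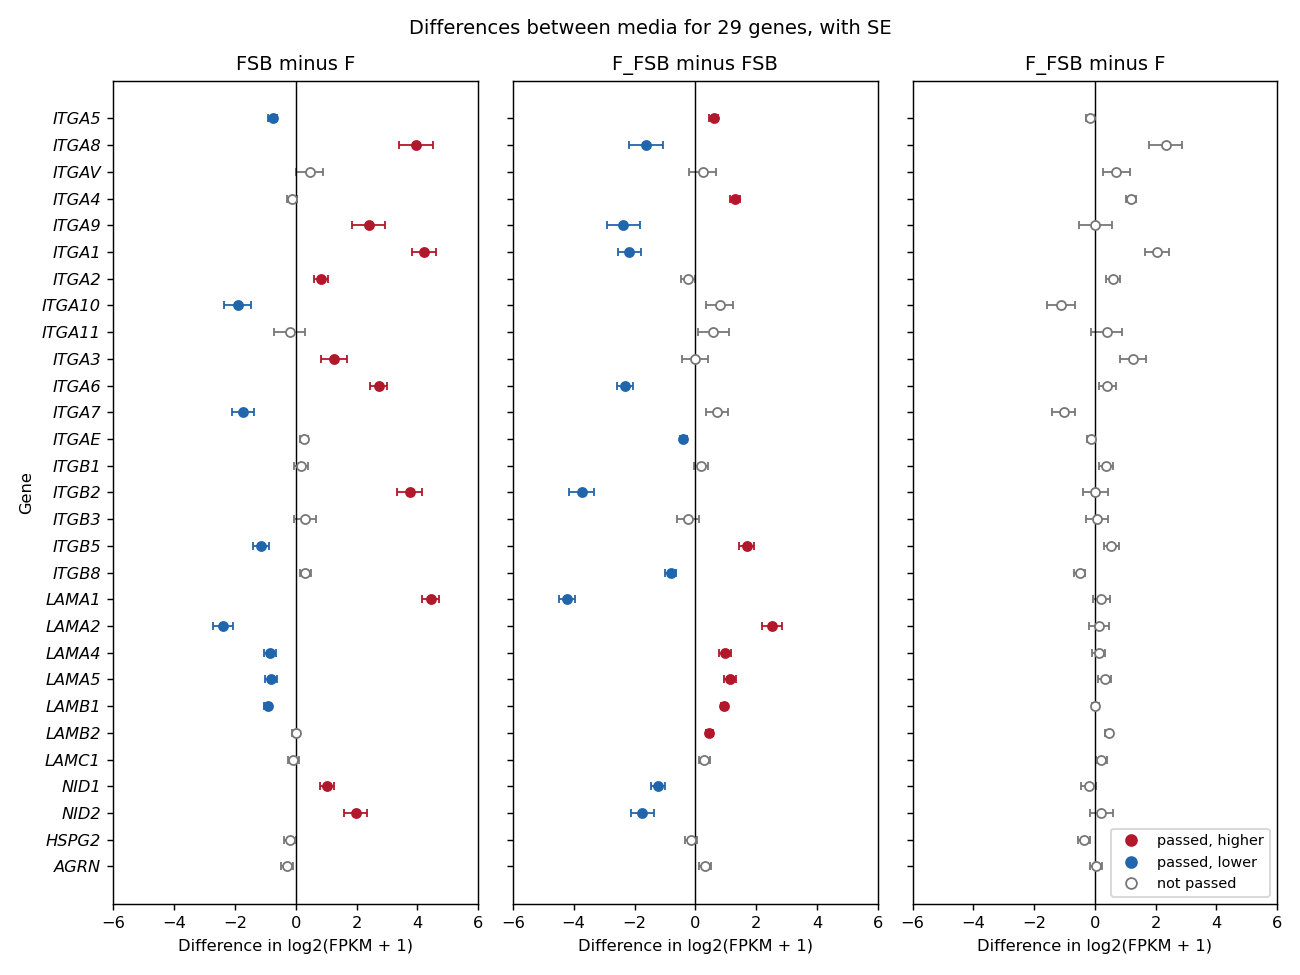
Log2 differences (points, in log2(FPKM + 1) units, with SE as bars) for 29 of the 30 genes tested, with panels for FSB minus F (left), F_FSB minus FSB (middle) and F_FSB minus F (right), and filled points for genes that passed the threshold. The left and middle panels run in opposite directions for most genes that passed, and in the right panel no gene shown passed. The FSB libraries enter the left and middle panels with opposite signs.

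By role, most laminin chains that passed were lower in FSB than in F. Of 18 integrin subunits tested in FSB minus F, 7 were higher, 4 were lower and 7 did not pass (61.1% passed), and more were higher than lower, as among all genes (28.5% higher and 13.4% lower). Of 8 laminin chains tested, LAMA1 was higher, 5 were lower and 2 did not pass (75.0% passed). In F_FSB minus FSB, 3 integrin subunits were higher and 7 lower (55.6% passed), and 6 laminin chains were higher while LAMA1 was lower (87.5% passed), beside 13.7% higher and 28.2% lower among all genes. The median log2 difference of the tested laminin chains was -0.84 in FSB minus F and 0.96 in F_FSB minus FSB, against 0.14 and -0.13 for all genes.

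The upstream sequences of 5 genes from these sets are shown, since they are the start regions of genes that moved in opposite directions. ITGA1, ITGA8 and NID2 were higher in FSB than in F, and ITGA5 and LAMB1 were lower. Each is the 250 bases before the gene's start in RefSeq (build GRCh38.p14), read 5′ to 3′ on the gene's own strand. Capitals mark CAGAC, the core of SMAD binding elements, and GGGCGG, the GC box bound by SP1-type factors, on either strand, so that CCGCCC is also in capitals; AP-1 sites, spelled TGANTCA, were searched too. The windows are chr5:52787666-52787915 (plus strand) for ITGA1, chr10:15719923-15720172 (minus strand) for ITGA8, chr14:52069060-52069309 (minus strand) for NID2, chr12:54419267-54419516 (minus strand) for ITGA5 and chr7:108003162-108003411 (minus strand) for LAMB1.
ITGA1: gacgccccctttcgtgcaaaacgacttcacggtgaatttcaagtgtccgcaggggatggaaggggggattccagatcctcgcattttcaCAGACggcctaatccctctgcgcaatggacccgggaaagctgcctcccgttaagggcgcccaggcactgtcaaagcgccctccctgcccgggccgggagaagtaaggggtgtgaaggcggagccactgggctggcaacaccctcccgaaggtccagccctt
ITGA8: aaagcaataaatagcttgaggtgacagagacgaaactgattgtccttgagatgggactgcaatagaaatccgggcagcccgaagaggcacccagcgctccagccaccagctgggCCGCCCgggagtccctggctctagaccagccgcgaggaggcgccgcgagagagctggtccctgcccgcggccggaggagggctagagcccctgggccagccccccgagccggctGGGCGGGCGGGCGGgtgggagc
NID2: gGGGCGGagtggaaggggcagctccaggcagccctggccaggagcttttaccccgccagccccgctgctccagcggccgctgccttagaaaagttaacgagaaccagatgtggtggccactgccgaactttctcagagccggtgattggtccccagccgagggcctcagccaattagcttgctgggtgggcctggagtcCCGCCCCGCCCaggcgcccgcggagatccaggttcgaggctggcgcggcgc
ITGA5: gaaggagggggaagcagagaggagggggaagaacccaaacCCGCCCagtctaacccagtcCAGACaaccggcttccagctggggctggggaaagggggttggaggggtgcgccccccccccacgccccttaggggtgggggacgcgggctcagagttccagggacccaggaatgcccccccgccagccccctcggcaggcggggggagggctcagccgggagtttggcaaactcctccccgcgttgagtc
LAMB1: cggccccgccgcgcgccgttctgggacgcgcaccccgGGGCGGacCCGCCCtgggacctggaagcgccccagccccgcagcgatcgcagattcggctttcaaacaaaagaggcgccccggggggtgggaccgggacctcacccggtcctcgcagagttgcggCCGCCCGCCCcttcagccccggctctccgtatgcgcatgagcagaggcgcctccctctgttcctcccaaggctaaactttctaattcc
CAGAC occurred in the window of ITGA1 and in that of ITGA5, 161 and 190 bases before the start. The GC box occurred 4 times in ITGA8, 3 times in NID2, 1 time in ITGA5 and 4 times in LAMB1, and some of these copies overlap. No TGANTCA was found in the 5 windows. Of the 35116 RefSeq windows of this length, 38% hold CAGAC, 42.6% hold the GC box and 6.57% hold TGANTCA. Both CAGAC and the GC box occurred in windows of genes that rose and of genes that fell, and a match says only that the letters are there. RefSeq windows were matched for 29 of the 42 genes.

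Among alpha subunits that read fibronectin and other RGD or related ligands, ITGA8 rose and ITGA5 fell in FSB. ITGA8 (GRCh37, chr10:15559088-15761770), which with ITGB1 binds nephronectin and fibronectin, had 40.0, 29.3 and 21.3 FPKM in F_FSB libraries, 103, 111 and 68.8 FPKM in FSB libraries and 14.6, 2.07 and 3.59 FPKM in F libraries. All FSB libraries were above all F_FSB libraries, which were above all F libraries. ITGA8 rose in FSB against F (log2 difference 3.95 ± 0.55, adjusted p = 0.00124). It fell in F_FSB against FSB (log2 difference -1.62 ± 0.55, adjusted p = 0.0443), a call that was lost under 12 of 20 alternative settings with an adjusted p of up to 0.125. ITGA5 (chr12:54789045-54813050), the alpha subunit of the main fibronectin receptor, had 64.2, 78.7 and 67.8 FPKM in F_FSB libraries, 48.7, 51.4 and 38.2 FPKM in FSB libraries and 71.9, 91.7 and 71.7 FPKM in F libraries. Its FSB libraries were below all others, and F_FSB and F overlapped. ITGA5 was lower in FSB than in F (log2 difference -0.76 ± 0.15, adjusted p = 0.00526) and higher in F_FSB than in FSB (log2 difference 0.60 ± 0.15, adjusted p = 0.0128). The ratio of ITGA8 to ITGA5 was 0.437 ± 0.164 in F_FSB, 2.02 ± 0.194 in FSB and 0.0921 ± 0.0976 in F (SD, n = 3), so ITGA8 exceeded ITGA5 in the FSB libraries alone. NPNT, the gene of nephronectin, stayed at or below 0.2 FPKM in all 9 libraries.

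ITGA4 and ITGA9, related subunits that bind VCAM1, fibronectin splice forms and tenascin-C, moved in opposite directions after withdrawal. ITGA4 (chr2:182321619-182402474) had 19.0, 17.2 and 21.0 FPKM in F_FSB libraries, 6.24, 6.66 and 8.60 FPKM in FSB libraries and 9.41, 6.19 and 8.23 FPKM in F libraries. The F_FSB libraries were above all the others, and FSB and F overlapped. It was higher in F_FSB than in FSB (log2 difference 1.30 ± 0.16, adjusted p = 0.000798), and did not pass in FSB minus F. ITGA9 (chr3:37493813-37861281) had 0.318, 2.36 and 0.315 FPKM in F_FSB libraries, 8.90, 8.15 and 8.0 FPKM in FSB libraries and 0.188, 0.140 and 3.16 FPKM in F libraries. It was at 8.0 FPKM or more in every FSB library and at 3.16 FPKM or less elsewhere. It rose in FSB against F (log2 difference 2.39 ± 0.54, adjusted p = 0.00940) and fell in F_FSB against FSB (log2 difference -2.38 ± 0.54, adjusted p = 0.00921). ITGA9 would not have passed the filter on low values without its FSB libraries. ITGAV (chr2:187454790-187545628), the vitronectin receptor subunit, had 116, 86.7 and 104 FPKM in F_FSB libraries, 95.0, 116 and 56.4 FPKM in FSB libraries and 129, 37.7 and 48.4 FPKM in F libraries. It had the highest mean of this role in F_FSB, while ITGA8 did in FSB and ITGA5 in F. The groups overlapped, with F replicate 1 the highest library of all, and ITGAV passed in no comparison; without F replicate 1 it passed in FSB minus F, with a log2 difference of 0.98 (adjusted p = 0.0371). CERKL overlaps ITGA4 and reached 8.09 FPKM in F_FSB replicate 2, and ITGA2B, the platelet subunit, stayed at or below 0.337 FPKM. A list of 5 megakaryocyte genes summed to at most 0.76 FPKM in any library.

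Of the 4 collagen receptor subunits, ITGA1 had the largest log2 difference in FSB minus F. ITGA1 (chr5:52084136-52249485) had 27.1, 28.8 and 12 FPKM in F_FSB libraries, 77.3, 90.2 and 137 FPKM in FSB libraries and 7.05, 2.97 and 3.85 FPKM in F libraries. The 3 groups did not overlap, and FSB was highest and F lowest. ITGA1 rose in FSB against F (log2 difference 4.21 ± 0.39, adjusted p = 0.000243) and fell in F_FSB against FSB (log2 difference -2.17 ± 0.39, adjusted p = 0.00337). PELO, a gene of ribosome rescue, overlaps the ITGA1 locus and was also highest in FSB, with 8.57 to 13.4 FPKM in F_FSB, 16.7 to 25.3 FPKM in FSB and 5.67 to 7.96 FPKM in F. No source used here says whether strand entered the quantification, and the part of PELO in the ITGA1 value was not tested. Smooth muscle cells also use ITGA1 and ITGA8, and a list of smooth muscle genes was higher in FSB too, with sums of 286 to 454 FPKM in F_FSB, 639 to 1040.0 FPKM in FSB and 204 to 281 FPKM in F; TAGLN, CNN1 and LMOD1 carried it, while MYH11 and MYOCD did not exceed 1.26 and 1.92 FPKM. ACTA2, the remaining gene of the list, averaged 120.4 ± 89.5 FPKM in F_FSB, 45.3 ± 12.7 FPKM in FSB and 34.4 ± 13.2 FPKM in F (SD, n = 3), with groups that overlapped. Their part in the ITGA1 and ITGA8 results was not tested. ITGA11 (chr15:68594042-68724492), the fibrillar collagen receptor of fibroblasts, was the most abundant alpha subunit by mean in F_FSB and F, with 244, 128 and 64.8 FPKM in F_FSB libraries, 76.9, 73.0 and 105 FPKM in FSB libraries and 176, 81.4 and 63.1 FPKM in F libraries. Its groups overlapped, and it passed in no comparison. The ratio of ITGA1 to ITGA11 was 0.174 ± 0.0581 in F_FSB, 1.19 ± 0.161 in FSB and 0.0459 ± 0.0133 in F (SD, n = 3). ITGA2, whose group means were 1.42 FPKM in F_FSB, 1.84 FPKM in FSB and 0.593 FPKM in F, rose in FSB against F (log2 difference 0.82 ± 0.23, adjusted p = 0.0238). ITGA10, with means of 1.40 FPKM in F_FSB, 0.341 FPKM in FSB and 4.83 FPKM in F, was lower in FSB than in F (log2 difference -1.92 ± 0.45, adjusted p = 0.0111); in F_FSB minus FSB its log2 difference of 0.80 passed without F replicate 1 (adjusted p = 0.0248) and not with all libraries (adjusted p = 0.187). ITGA2 lost its call under 5 of 20 alternative settings. It would not have passed the filter on low values without its FSB libraries, nor ITGA10 without its F libraries.

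Of the laminin receptor subunits, ITGA6 rose and ITGA7 fell in FSB against F. ITGA6 (chr2:173292314-173371181), which pairs with ITGB1 or ITGB4 and binds most laminins, had 2.45, 3.34 and 2.66 FPKM in F_FSB libraries, 17.1, 18.1 and 18.5 FPKM in FSB libraries and 3.59, 1.65 and 0.914 FPKM in F libraries. Every FSB library was at 17.1 FPKM or more, and no other library exceeded 3.59 FPKM. ITGA6 rose in FSB against F (log2 difference 2.73 ± 0.28, adjusted p = 0.000364) and fell in F_FSB against FSB (log2 difference -2.32 ± 0.28, adjusted p = 0.000685). ITGA7 (chr12:56078352-56106089), the laminin receptor subunit best known from skeletal muscle, had 1.14, 1.84 and 3.06 FPKM in F_FSB libraries, 1.08, 0.889 and 0.459 FPKM in FSB libraries and 2.84, 4.45 and 9.04 FPKM in F libraries. It was lower in FSB than in F (log2 difference -1.73 ± 0.36, adjusted p = 0.00701), and the groups did not overlap in that comparison or in F_FSB against FSB, where it did not pass. A list of skeletal muscle genes summed to 1.47 to 13.0 FPKM in F_FSB, 13.4 to 17.2 FPKM in FSB and 11.1 to 13.0 FPKM in F, carried by ACTA1. TNNT1 went the other way, with means of 0.840 FPKM in F_FSB, 0.139 FPKM in FSB and 1.72 FPKM in F. MYF5 and MYOG were listed at 0 in all libraries, and the part of this list in the ITGA7 result was not tested. ITGA3 (chr17:48133340-48167849), a receptor subunit for laminins with the LAMA3 or LAMA5 chain, had 15.6, 9.94 and 14.0 FPKM in F_FSB libraries, 16.9, 18.0 and 7.09 FPKM in FSB libraries and 6.27, 7.46 and 2.32 FPKM in F libraries. Its FSB and F libraries overlapped, and its call in FSB minus F (log2 difference 1.25 ± 0.43, adjusted p = 0.0459) was lost under 13 of 20 alternative settings.

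ITGB1 dominated the beta subunits. ITGB1 (chr10:33189246-33247293), the common partner, had 518, 795 and 434 FPKM in F_FSB libraries, 494, 543 and 443 FPKM in FSB libraries and 507, 427 and 383 FPKM in F libraries. All groups overlapped, and it passed in no comparison; it made up 81.2 ± 6.59% of the summed beta subunit FPKM in F_FSB, 88.3 ± 4.03% in FSB and 82.7 ± 1.73% in F (SD, n = 3). ITGB5 (chr3:124481795-124606144), which pairs with ITGAV to bind vitronectin, had 85.8, 123 and 145 FPKM in F_FSB libraries, 33.8, 33.2 and 38.5 FPKM in FSB libraries and 111, 73.9 and 59.9 FPKM in F libraries. The FSB libraries were below all others. ITGB5 was lower in FSB than in F (log2 difference -1.15 ± 0.25, adjusted p = 0.00808) and higher in F_FSB than in FSB (log2 difference 1.69 ± 0.25, adjusted p = 0.00149). ITGB8, another ITGAV partner that activates latent TGF-β, had means of 1.46 ± 0.188 FPKM in F_FSB, 3.33 ± 0.558 FPKM in FSB and 2.54 ± 0.890 FPKM in F (SD, n = 3) and was lower in F_FSB than in FSB (log2 difference -0.81 ± 0.18, adjusted p = 0.00911); without F replicate 1 it also passed in FSB minus F, with a log2 difference of 0.51 (adjusted p = 0.0312), against 0.31 with all libraries. ITGB6, the epithelial partner, was listed at 0 in all F_FSB and FSB libraries. ITGB3 averaged 8.36 ± 3.00 FPKM in F_FSB, 10.1 ± 4.02 FPKM in FSB and 8.04 ± 3.10 FPKM in F (SD, n = 3), and passed in no comparison.

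ITGB2 (chr21:46305868-46348753), the beta subunit of leukocyte integrins, had 0.0575, 0.0551 and 0.118 FPKM in F_FSB libraries, 8.37, 8.94 and 30.6 FPKM in FSB libraries and 0, 0.177 and 0.0339 FPKM in F libraries. FSB replicate 3 was the highest, and no F_FSB or F library exceeded 0.177 FPKM. ITGB2 rose in FSB against F (log2 difference 3.75 ± 0.41, adjusted p = 0.000485) and fell in F_FSB against FSB (log2 difference -3.73 ± 0.41, adjusted p = 0.000508). It would not have passed the filter on low values without its FSB libraries. Its alpha partners ITGAL, ITGAM, ITGAX and ITGAD stayed at or below 0.145 FPKM in every library. A list of 8 leukocyte genes also summed higher in FSB, with 2.38 to 4.67 FPKM in F_FSB, 14.2 to 17.4 FPKM in FSB and 4.91 to 7.65 FPKM in F, and 3 of the 8 reached 1 FPKM in any library. LAPTM5 carried the difference, with 0.403 to 0.587 FPKM in F_FSB, 8.92 to 12.8 FPKM in FSB and 0.0799 to 0.135 FPKM in F. CD74 averaged 1.40 FPKM in F_FSB, 2.20 FPKM in FSB and 3.94 FPKM in F, and CORO1A 1.66, 2.45 and 2.24 FPKM in the same groups. Neither CD74 nor CORO1A passed in FSB minus F. The defining leukocyte genes PTPRC, SPI1, TYROBP and CD3E were at or near 0 (PTPRC at most 0.0671 FPKM). The part of the list in the ITGB2 result was not tested. ITGAE, the remaining alpha subunit of this family, had 1.32, 1.08 and 1.72 FPKM in F_FSB libraries, 2.00, 2.35 and 1.98 FPKM in FSB libraries and 1.74, 1.57 and 1.47 FPKM in F libraries. It fell in F_FSB against FSB (log2 difference -0.39 ± 0.12, adjusted p = 0.0345), a call lost under 12 of 20 alternative settings, and GSG2, which lies within the ITGAE locus, was also highest in FSB, at 5.18 to 6.36 FPKM.

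**Figure D2:**
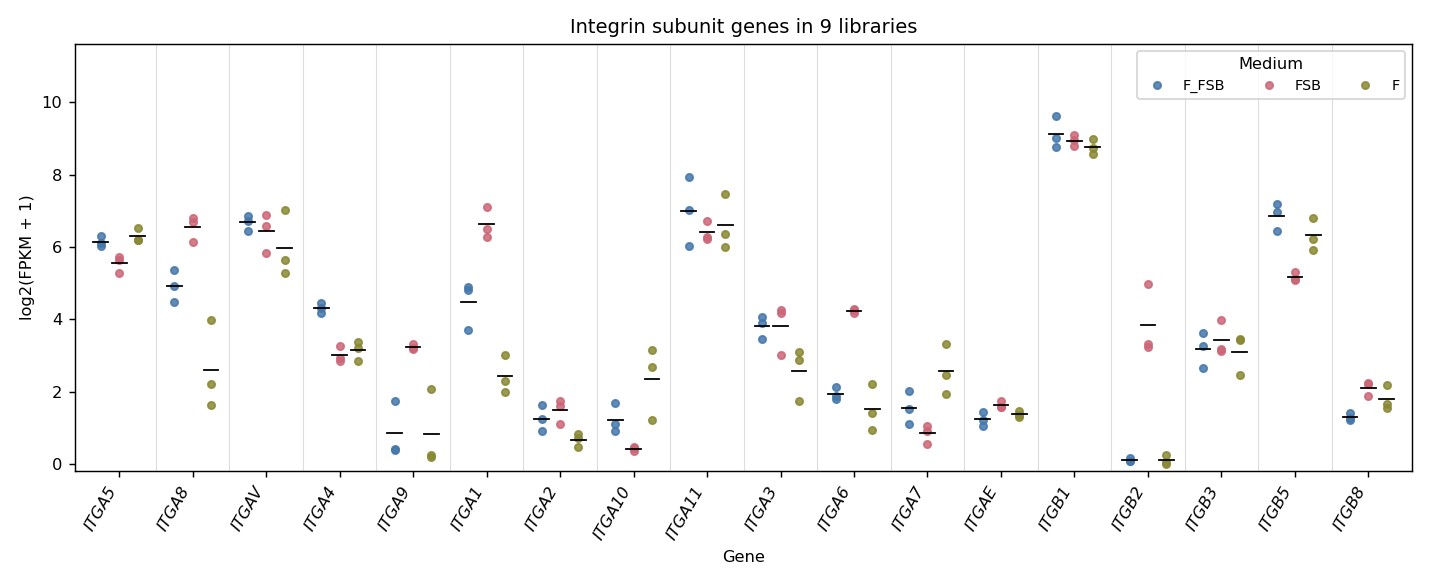
Levels of the 18 integrin subunit genes tested, as log2(FPKM + 1) for each library (points) with group means (bars), for F_FSB, FSB and F. ITGA1, ITGA6, ITGA8, ITGA9 and ITGB2 are highest in FSB, ITGA5 and ITGB5 are lowest there, and ITGB1 lies near the top in every library.

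The make-up of the alpha subunit pool differed between the media. ITGA1 took 5.41 ± 1.80% of the summed alpha subunit FPKM in F_FSB, 21.8 ± 7.46% in FSB and 1.53 ± 0.271% in F (SD, n = 3). ITGA8 took 7.24 ± 0.432% in F_FSB, 20.0 ± 4.14% in FSB and 1.96 ± 1.34% in F. ITGA5 took 17.9 ± 5.09% in F_FSB, 9.81 ± 1.19% in FSB and 28.8 ± 10.7% in F. The summed alpha subunit FPKM was 414 ± 111 in F_FSB, 469 ± 26.1 in FSB and 298 ± 111 in F (SD, n = 3), and the F_FSB libraries overlapped both other groups.

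Among laminin alpha chains LAMA1 rose and LAMA2, LAMA4 and LAMA5 fell in FSB against F. LAMA1 (chr18:6941743-7117813), the alpha chain of the first basement membranes of the embryo, had 0.676, 0.537 and 0.0626 FPKM in F_FSB libraries, 21.7, 19.0 and 38.5 FPKM in FSB libraries and 0.247, 0.0759 and 0.321 FPKM in F libraries. It was at 19.0 FPKM or more in every FSB library and at 0.676 FPKM or less in all others. LAMA1 rose in FSB against F (log2 difference 4.44 ± 0.27, adjusted p = 5.06e-05) and fell in F_FSB against FSB (log2 difference -4.23 ± 0.27, adjusted p = 7.43e-05). It would not have passed the filter on low values without its FSB libraries. LAMA2 (chr6:129204286-129837711), the alpha chain of muscle and Schwann cell basement membranes, had 4.75, 6.84 and 4.72 FPKM in F_FSB libraries, 0.0835, 0.126 and 0.103 FPKM in FSB libraries and 7.96, 2.19 and 5.87 FPKM in F libraries. All FSB libraries were at or below 0.126 FPKM, and all others were at or above 2.19 FPKM. LAMA2 was lower in FSB than in F (log2 difference -2.40 ± 0.34, adjusted p = 0.00131) and higher in F_FSB than in FSB (log2 difference 2.53 ± 0.34, adjusted p = 0.00105). Pluripotency genes were also highest in FSB: a list of 6 summed to 3.88 to 4.85 FPKM in F_FSB, 96.3 to 109 FPKM in FSB and 2.36 to 4.54 FPKM in F, carried by LIN28A (74.3 to 85.4 FPKM in FSB and at most 0.0529 FPKM elsewhere) and SALL4, while POU5F1, NANOG and SOX2 did not exceed 1.15, 0.247 and 0.505 FPKM. Glial genes, like LAMA2, were lowest in FSB: a list of 7 summed to 61.9 to 91.3 FPKM in F_FSB, 33.7 to 36.0 FPKM in FSB and 64.9 to 78.2 FPKM in F, carried by PMP22, with SOX10 and CDH19 at or below 1.69 and 1.35 FPKM. The part of such cells in either result was not tested.

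LAMA4 (chr6:112429134-112575828), the alpha chain of mesenchymal and vascular laminins, was the most abundant in all libraries, with 169, 253 and 147 FPKM in F_FSB libraries, 102, 96.3 and 82.4 FPKM in FSB libraries and 161, 199.9 and 152 FPKM in F libraries. The FSB libraries were below all others. LAMA4 was lower in FSB than in F (log2 difference -0.86 ± 0.21, adjusted p = 0.0122) and higher in F_FSB than in FSB (log2 difference 0.98 ± 0.21, adjusted p = 0.00663). An uncharacterised locus that overlaps LAMA4 stood at 78.8 FPKM in F_FSB replicate 2, the library with the most LAMA4, and at or below 0.182 FPKM in the others; its part in the LAMA4 value was not tested. The summed level of a list of mesenchymal genes was lower in FSB as well, at 436 to 559 FPKM in F_FSB, 219.6 to 289 FPKM in FSB and 470.3 to 563 FPKM in F. Of its 6 genes, 4 were lower in FSB minus F and 2 did not pass (66.7% passed, beside 41.9% of all genes tested). THY1 averaged 27.4 FPKM in F_FSB, 29.3 FPKM in FSB and 24.6 FPKM in F, and PDGFRB 94.1, 91.1 and 82.5 FPKM in the same groups. The part of this list in the laminin results was not tested. LAMA5 (chr20:60884121-60942368), widespread in mature basement membranes, had 17.9, 10.8 and 10.7 FPKM in F_FSB libraries, 6.56, 4.97 and 4.43 FPKM in FSB libraries and 10.5, 10.9 and 8.88 FPKM in F libraries. Its FSB libraries were again below all others. LAMA5 was lower in FSB than in F (log2 difference -0.82 ± 0.21, adjusted p = 0.0148) and higher in F_FSB than in FSB (log2 difference 1.14 ± 0.21, adjusted p = 0.00358); without FSB replicate 2 the adjusted p in FSB minus F was 0.0522. LAMA3, the epithelial chain, stayed at or below 0.238 FPKM. Of the summed alpha chain FPKM, LAMA4 took 90.5 ± 2.74% in F_FSB, 74.6 ± 7.78% in FSB and 91.4 ± 2.20% in F, and LAMA1 took 0.196 ± 0.156% in F_FSB, 21.0 ± 8.36% in FSB and 0.121 ± 0.0790% in F (SD, n = 3).

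Of the beta chains, LAMB1 (chr7:107564246-107643804), the partner in most embryonic laminins, had 296, 326 and 288 FPKM in F_FSB libraries, 162, 157 and 151 FPKM in FSB libraries and 279.7, 333 and 288 FPKM in F libraries. The 3 FSB libraries lay close together and below all others. LAMB1 was lower in FSB than in F (log2 difference -0.93 ± 0.10, adjusted p = 0.000524) and higher in F_FSB than in FSB (log2 difference 0.95 ± 0.10, adjusted p = 0.000505), while F_FSB and F overlapped. LAMB2 (chr3:49158547-49170599), the beta chain of synaptic and vascular laminins, had 58.4, 77.5 and 63.4 FPKM in F_FSB libraries, 46.8, 47.5 and 49.1 FPKM in FSB libraries and 50.3, 51.5 and 42.6 FPKM in F libraries. F_FSB was above both other groups, which overlapped. It was higher in F_FSB than in FSB (log2 difference 0.46 ± 0.12, adjusted p = 0.0160), a call that was lost without FSB replicate 1 or without FSB replicate 2 (adjusted p = 0.0541 and 0.0518), and did not pass in FSB minus F. LAMB3 was not tested; its highest value was 6.13 FPKM in F_FSB replicate 2, and LAMB4 was near 0. LAMA3 and LAMB3, chains of an epithelial laminin, averaged at most 0.185 and 2.62 FPKM in any group. A list of 10 epithelial genes summed to 78.5 to 188 FPKM in F_FSB, 109 to 206 FPKM in FSB and 35.6 to 112 FPKM in F, carried by KRT8 and KRT18, while the epithelial genes EPCAM, CDH1 and TP63 did not exceed 0.788, 0.0353 and 0.0722 FPKM.

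Among gamma chains, LAMC1 (chr1:182992595-183114727), the common gamma chain, had 248, 324 and 192 FPKM in F_FSB libraries, 219, 207 and 184 FPKM in FSB libraries and 211, 226 and 207 FPKM in F libraries. Its groups overlapped, and it passed in no comparison; without F_FSB replicate 3 it passed in F_FSB minus FSB with a log2 difference of 0.48 (adjusted p = 0.0393), against 0.29 with all libraries. The ratio of LAMB1 to LAMC1 was 1.23 ± 0.250 in F_FSB, 0.773 ± 0.0427 in FSB and 1.40 ± 0.0754 in F (SD, n = 3).

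**Figure D3:**
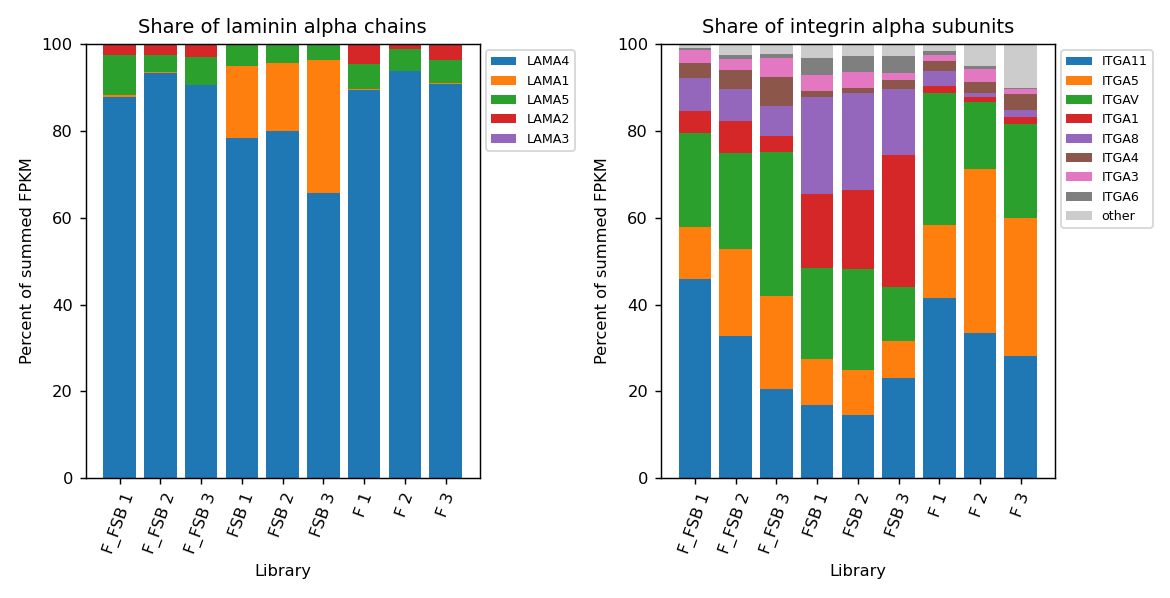
Share of each chain or subunit in the summed FPKM of the laminin alpha chains and the integrin alpha subunits, in percent, for each library. LAMA1 takes 15.8% to 30.7% of the alpha chains in FSB libraries, and ITGA1 and ITGA8 take larger shares of the integrin alpha subunits than in F_FSB or F.

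Of the linkers both nidogens rose. NID1 (chr1:236139130-236228481), which joins the laminin gamma chain to collagen IV, had 73.5, 87.6 and 116 FPKM in F_FSB libraries, 204, 187 and 258 FPKM in FSB libraries and 77.8, 107 and 137 FPKM in F libraries. All FSB libraries were above all others. NID1 rose in FSB against F (log2 difference 1.03 ± 0.24, adjusted p = 0.0111) and fell in F_FSB against FSB (log2 difference -1.23 ± 0.24, adjusted p = 0.00495). NID2 (chr14:52471520-52535946), its paralog, had 16.4, 36.3 and 36.2 FPKM in F_FSB libraries, 83.0, 75.9 and 141 FPKM in FSB libraries and 16.1, 26.8 and 31.4 FPKM in F libraries. The FSB libraries were at 75.9 FPKM or more and no other exceeded 36.3 FPKM. A list of endothelial genes, of a cell type with a basement membrane of its own, summed to 1.88 to 5.95 FPKM in F_FSB, 6.05 to 6.99 FPKM in FSB and 4.04 to 7.34 FPKM in F. Its members differed in direction: CDH5 averaged 0.208 FPKM in F_FSB, 3.43 FPKM in FSB and 0.143 FPKM in F, and TIE1 0.162, 1.62 and 0.226 FPKM in the same groups, while TEK averaged 1.68 FPKM in F_FSB, 0.131 FPKM in FSB and 3.40 FPKM in F. CDH5 and TIE1 passed the filter through their FSB libraries, all 3 genes passed the test in FSB minus F and in F_FSB minus FSB, and their part in the nidogen results was not tested. NID2 rose in FSB against F (log2 difference 1.97 ± 0.38, adjusted p = 0.00495) and fell in F_FSB against FSB (log2 difference -1.75 ± 0.38, adjusted p = 0.00769). The ratio of NID1 to LAMC1, the chain it binds, was 0.390 ± 0.186 in F_FSB, 1.08 ± 0.278 in FSB and 0.501 ± 0.150 in F (SD, n = 3). HSPG2 averaged 38.1 ± 2.87 FPKM in F_FSB, 42.9 ± 6.72 FPKM in FSB and 50.4 ± 14.3 FPKM in F, and AGRN averaged 39.0 ± 10.2 FPKM in F_FSB, 30.3 ± 2.80 FPKM in FSB and 37.6 ± 6.77 FPKM in F (SD, n = 3). Neither passed in any comparison; without F_FSB replicate 2, AGRN passed in F_FSB minus FSB with a log2 difference of 0.55 (adjusted p = 0.0290), against 0.32 with all libraries. AGRN, measured here over the whole gene, has splice forms that the tables do not separate.

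**Figure D4:**
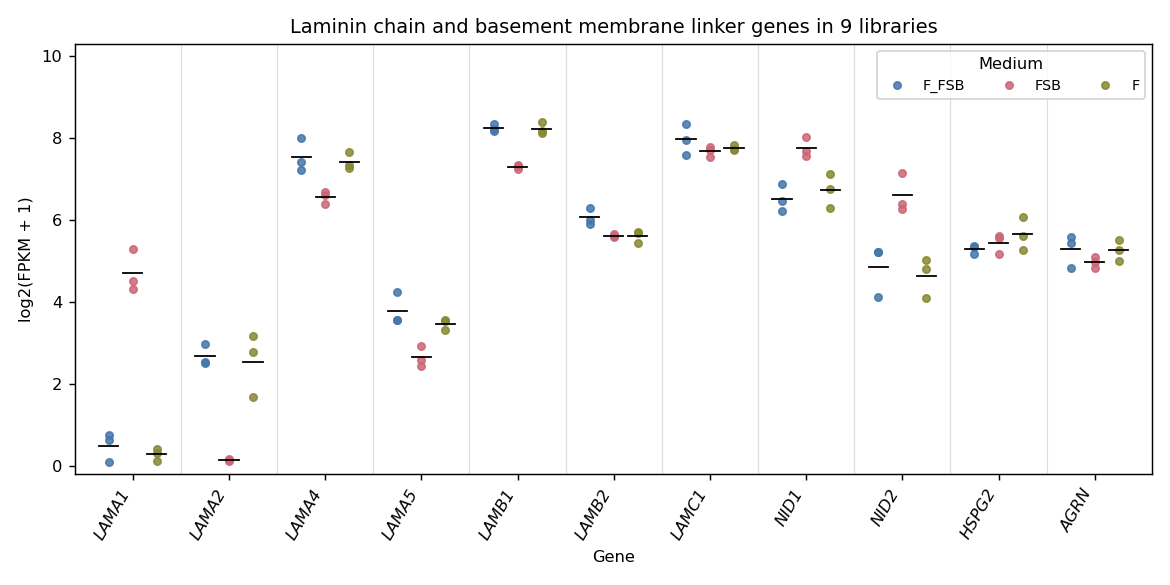
Levels of 7 laminin chains and the 4 linkers, as log2(FPKM + 1) for each library (points) with group means (bars), for F_FSB, FSB and F. LAMA1, NID1 and NID2 are highest in FSB, and LAMA2, LAMA4, LAMA5 and LAMB1 are lowest there.

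Cells that had left the inhibitor were set against cells that never had it during expansion. In F_FSB minus F no member passed with limma, and 1 of 13216 genes (0.00757%) did; 9 of the 30 members and 1195 of all genes had an unadjusted p under 0.05. This comparison shares libraries with the other comparisons. Groups did not overlap for 7 of the 30 members, 23.3%, beside 13% of all genes tested (6.28% higher and 6.76% lower). ITGA1, ITGA2, ITGA3, ITGA4, ITGA8 and LAMB2 were above F in every F_FSB library, and ITGB8 was below F in every F_FSB library. Values for ITGA1 (log2 difference 2.04 ± 0.39, adjusted p = 0.338), ITGA8 (log2 difference 2.33 ± 0.55, adjusted p = 0.420) and ITGA4 (log2 difference 1.18 ± 0.16, adjusted p = 0.191) did not pass. Without F replicate 1, in which ITGA8 stood at 14.6 FPKM against 2.07 and 3.59 FPKM in the other F libraries, ITGA8 (3.01, adjusted p = 0.0204), ITGA4 (1.30, adjusted p = 0.0309) and ITGA10 (-1.68, adjusted p = 0.0433) passed. ITGA1 then had a log2 difference of 2.34 (adjusted p = 0.0621). The 8 laminin chains tested had log2 differences between 0.02 and 0.45 in F_FSB minus F.

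Other basement membrane genes were read from a list of 25, of which 18 were tested. In FSB minus F 7 were higher and 5 lower (66.7% passed, beside 41.9% of all genes), and in F_FSB minus FSB 5 were higher and 5 lower (55.6% passed, beside 41.8%). The FREM1, FREM2 and FRAS1 proteins form a complex under embryonic epithelia, and their genes moved in the same directions as LAMA1. FRAS1 was higher in FSB (log2 difference 2.32 ± 0.45, adjusted p = 0.00515) and lower after withdrawal (log2 difference -2.26 ± 0.45, adjusted p = 0.00538). FREM1 had 1.34, 0.582 and 0.242 FPKM in F_FSB libraries, 21.0, 18.9 and 20.3 FPKM in FSB libraries and 0.290, 0.610 and 0.800 FPKM in F libraries. It was higher in FSB (log2 difference 3.76 ± 0.23, adjusted p = 4.70e-05) and lower after withdrawal (log2 difference -3.66 ± 0.23, adjusted p = 6.09e-05). FREM2 had 2.18, 0.836 and 0.639 FPKM in F_FSB libraries, 34.7, 28.2 and 33.4 FPKM in FSB libraries and 2.38, 0.0480 and 0.0719 FPKM in F libraries, and passed in FSB minus F (log2 difference 4.40 ± 0.45, adjusted p = 0.000387) and in F_FSB minus FSB (log2 difference -3.96 ± 0.45, adjusted p = 0.000584). FREM1 and FREM2 did not exceed 2.38 FPKM outside FSB, where they were at 18.9 FPKM or more, and neither would have passed the filter without its FSB libraries. The major collagen IV chains, to which nidogens bind, passed in FSB minus F and did not pass after withdrawal. COL4A1 had 477, 481 and 308 FPKM in F_FSB libraries, 509, 502 and 462 FPKM in FSB libraries and 263, 151 and 173 FPKM in F libraries. It rose in FSB against F (log2 difference 1.36 ± 0.24, adjusted p = 0.00341) and did not pass in F_FSB minus FSB (log2 difference -0.25 ± 0.24, adjusted p = 0.440). COL4A2 rose in FSB against F (log2 difference 0.91 ± 0.18, adjusted p = 0.00550) and also did not pass in F_FSB minus FSB (log2 difference -0.11 ± 0.18, adjusted p = 0.636). COL18A1, the collagen from which endostatin is cut, was higher in FSB (log2 difference 1.42 ± 0.21, adjusted p = 0.00163) and lower after withdrawal (log2 difference -0.92 ± 0.21, adjusted p = 0.00957). PXDN, the peroxidase that crosslinks collagen IV, was lower in FSB (log2 difference -0.63 ± 0.09, adjusted p = 0.00147) and higher after withdrawal (log2 difference 0.50 ± 0.09, adjusted p = 0.00381), a call lost with scaling to the same sum (adjusted p = 0.101).

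Of the genes for ligands of fibronectin and RGD receptors, more were lower than higher in FSB. Of 20 genes, all tested, 3 were higher and 10 lower in FSB minus F, and 12 were higher and 1 lower in F_FSB minus FSB; 65.0% passed in each comparison, beside 41.9% and 41.8% of all genes tested. FN1, which encodes the fibronectin on which the cells were also plated, had 2385, 2647 and 1175 FPKM in F_FSB libraries, 622, 594 and 680.3 FPKM in FSB libraries and 1272, 1059 and 1376 FPKM in F libraries. All FSB libraries were below all others. FN1 was lower in FSB than in F (log2 difference -0.96 ± 0.30, adjusted p = 0.0346), a call that was lost under 10 of 20 alternative settings, and higher in F_FSB than in FSB (log2 difference 1.63 ± 0.30, adjusted p = 0.00390), where the adjusted p was 0.0549 with no filter on low values. LTBP3, which stores latent TGF-β in the matrix, had 33.9, 38.6 and 47.7 FPKM in F_FSB libraries, 4.75, 3.73 and 5.98 FPKM in FSB libraries and 43.6, 59.4 and 63.3 FPKM in F libraries, and was lower in FSB (log2 difference -3.28 ± 0.20, adjusted p = 4.70e-05). LTBP1, of the same family, was lower in FSB (log2 difference -2.43 ± 0.35, adjusted p = 0.00151), as was TGFB3, one of the TGF-β ligands (log2 difference -2.68 ± 0.36, adjusted p = 0.00112). TGFB1, another of these ligands, averaged 48.4 ± 17.2 FPKM in F_FSB, 46.0 ± 3.94 FPKM in FSB and 23.3 ± 7.24 FPKM in F (SD, n = 3). All its FSB libraries were above all its F libraries. VTN, which encodes vitronectin, was low in all libraries (at most 3.89 FPKM) and higher in FSB than in F (log2 difference 1.70 ± 0.22, adjusted p = 0.000924); it reached 1 FPKM in the FSB libraries alone, through which it passed the filter.

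Of 10 genes for laminin receptors that are not integrins, with their partners, 1 was higher and 2 lower in FSB minus F, and 2 were higher and 1 lower in F_FSB minus FSB; the 30.0% that passed in each comparison lay below the 41.9% and 41.8% of all genes tested. DAG1, which encodes dystroglycan, the receptor for laminin, agrin and perlecan, had 36.6, 39.2 and 41.5 FPKM in F_FSB libraries, 51.9, 50.5 and 56.8 FPKM in FSB libraries and 35.0, 38.0 and 29.9 FPKM in F libraries. It rose in FSB against F (log2 difference 0.62 ± 0.10, adjusted p = 0.00254) and fell in F_FSB against FSB (log2 difference -0.43 ± 0.10, adjusted p = 0.0110); with scaling by median ratios the adjusted p in F_FSB minus FSB was 0.0735. LGALS3, a galectin that binds laminin, was lower in FSB than in F (log2 difference -1.28 ± 0.35, adjusted p = 0.0210) and BCAM, a receptor for LAMA5 laminins, also (log2 difference -0.63 ± 0.19, adjusted p = 0.0287). The LGALS3 call was lost under 4 of 20 alternative settings (adjusted p up to 0.0748), among them leaving out FSB replicate 1, FSB replicate 2 or F replicate 2, and the BCAM call under 6 (adjusted p up to 0.0943), among them leaving out any of these libraries or F replicate 1.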

How the data were processed

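RNA libraries were made with a strand-specific kit, per the labels' protocols. The authors deposited 1 gene table per culture with FPKM values and confidence bounds, per the file headers. TopHat2 2.0.12, Cufflinks 2.1.1 and GRCh37 are named in the submitters' processing notes. No source used here gives options, masking, annotation or the use of strand, so genes that overlap others are uncertain. Cufflinks scaled each library to its own fragments, so a few abundant transcripts lower all other values of a library.

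The 9 tables were joined by gene and locus, and starts were made 1-based. Loci with a status other than OK in any library (95) were left out; all 42 member loci were OK. Genes that reached 1 FPKM in 3 or more libraries were tested as log2(FPKM + 1) with limma 3.58.1 (R 4.3.3), in 1 fit of group means with a mean-variance trend, two-sided, with Benjamini-Hochberg adjustment over 13216 genes. The test was first run on simulated data. Relative depth was taken from the commonest ratio of low FPKM values between libraries; intervals and detection limits that need fragment counts are not given. Of 378 member values 48 lay outside the bounds deposited with them, by at most 2.75% of the bound.

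The genes and lists were chosen with earlier results of these data known. Integrin and laminin genes are named by role. Values in every library are given for members with a group mean of 5 FPKM or more that passed in FSB minus F or F_FSB minus FSB, and for the highest member of each role. Of other lists, 2 to 4 genes with the smallest adjusted p in FSB minus F are named, with COL4A1, COL4A2, FN1, DAG1, NGFR and NT5E. Marker genes, partners, overlapping genes, FRAS1 and TGFB1 were named after their values were seen. The lists are other basement membrane genes, receptors for laminin that are not integrins, ligands of fibronectin and RGD receptors, adhesion complex genes, modifiers of integrins and laminin receptors, and markers of 10 cell types. Results of 1 member and of 1 marker gene are not reported here, and both stay in the counts and sums. Alternatives were another pseudocount, filter, scaling, set of samples, trend or block, and each library left out. Leaving out both F replicate 1 and F_FSB replicate 2 was chosen after seeing the data. Tables and figures were made with pandas 2.3.3 and matplotlib 3.10.9 under Python 3.11.15. Promoter sequences come from RefSeq (GRCh38.p14).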

Additional observations from a re-analysis of the deposited data

How the results depend on the processing

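Of the 19 members that passed in FSB minus F, 16 passed under every alternative setting in which they were tested, and the same number of 19 did in F_FSB minus FSB. No member that passed changed direction. Members higher in FSB minus F numbered 6 to 11 with 1 library left out (10 with all), and those lower 8 to 9 (9 with all); in F_FSB minus FSB 8 to 10 were higher (9 with all) and 6 to 10 lower (10 with all). The low counts of 6 came from leaving out an FSB library, where LAMA1 and ITGB2 reached 1 FPKM in fewer than 3 libraries and were not tested. In these cases ITGA2 and ITGA3 were tested and lost their calls in FSB minus F, as did ITGA8 and ITGAE in F_FSB minus FSB. In F_FSB minus F, 0 to 2 were higher and 0 to 1 lower with 1 library left out; leaving out both F replicate 1 and F_FSB replicate 2 gave 1 higher and 1 lower. The cause was not tested.

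With the culture number as a replicate block, 9 members were higher and 9 lower in FSB minus F, 9 and 9 in F_FSB minus FSB, and none in F_FSB minus F. Correlations of same-numbered deviations from the group means ran between -0.136 and 0.292, with the highest for replicate 1 of F_FSB and F. With 3 libraries in each group, they cannot show whether the numbers pair the cultures.

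Differences of members, and of COL4A2, that changed sign had not passed. In FSB minus F, leaving out 1 library gave -0.51 to 0.22 for ITGA11, -0.016 to 0.48 for ITGB3, -0.090 to 0.045 for LAMB2 and -0.39 to 0.0042 for HSPG2; without both named libraries ITGA11 was 0.22, ITGB3 -0.016 and LAMB2 0.028. In F_FSB minus FSB, leaving out 1 library gave -0.049 to 0.47 for ITGAV, -0.40 to 0.21 for ITGA3, -0.052 to 0.38 for ITGB1, -0.47 to 0.033 for ITGB3 and -0.20 to 0.035 for COL4A2. Without both named libraries ITGA3 was 0.17 and ITGB1 -0.052. ITGA3 was also 0.0025 with a pseudocount of 0.1, 0.13 with median ratios and 0.15 with quantile normalization, and COL4A2 was 0.033 with median ratios.

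Over all genes, scaling to the same sum gave 2283 higher in FSB minus F, against 3763 as deposited, and 1181 higher in F_FSB minus FSB, against 1805; leaving out F replicate 1 gave 48 higher and 26 lower in F_FSB minus F, against 0 and 1. Depth limits low genes most in F_FSB replicate 2; the 12 members not tested had group means of at most 2.62 FPKM.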

Other observations

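Of 31 tested genes of the integrin adhesion complex, 11 were higher and 3 lower in FSB minus F, and 5 were higher and 6 lower in F_FSB minus FSB. The shares that passed, 45.2% and 35.5%, lay near or below those of all genes tested (41.9% and 41.8%), so the counts are no result about these genes. BCAR1, a docking protein for SRC and focal adhesion kinase, had 41.3, 35.7 and 41.1 FPKM in F_FSB libraries, 88.6, 88.7 and 99.8 FPKM in FSB libraries and 34.6, 31.7 and 30.7 FPKM in F libraries, and rose in FSB against F (log2 difference 1.48 ± 0.09, adjusted p = 5.06e-05). VASP, which extends actin filaments, had 20.4, 22.6 and 17.4 FPKM in F_FSB libraries, 57.5, 62.7 and 49.3 FPKM in FSB libraries and 17.8, 15.9 and 16.2 FPKM in F libraries, and was also higher in FSB (log2 difference 1.70 ± 0.12, adjusted p = 9.38e-05). TENC1, a tensin that binds integrin tails, had 22.9, 19.9 and 24.3 FPKM in F_FSB libraries, 8.14, 7.66 and 9.19 FPKM in FSB libraries and 22.4, 25 and 24.4 FPKM in F libraries, and was lower in FSB (log2 difference -1.42 ± 0.10, adjusted p = 9.37e-05). KANK2, which binds talin, was lower too (log2 difference -1.12 ± 0.08, adjusted p = 7.34e-05). For each of these 4 genes the FSB libraries lay apart from all F_FSB and F libraries, and the difference between F_FSB and FSB passed in the opposite direction.

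Of 17 genes that modify integrins or laminin receptors, 2 were higher and 7 lower in FSB minus F, and 7 were higher and 1 lower in F_FSB minus FSB, so 52.9% and 47.1% passed, beside 41.9% and 41.8% of all genes tested. CD9, a tetraspanin that associates with integrins, had 36.9, 25 and 44.9 FPKM in F_FSB libraries, 4.26, 5.03 and 2.09 FPKM in FSB libraries and 29.4, 43.9 and 21.0 FPKM in F libraries, and was lower in FSB than in F (log2 difference -2.75 ± 0.34, adjusted p = 0.000806) and higher in F_FSB than in FSB (log2 difference 2.95 ± 0.34, adjusted p = 0.000627). TSPAN9, another tetraspanin (log2 difference -2.24 ± 0.19, adjusted p = 0.000180), CD47, an integrin-associated receptor (log2 difference -1.86 ± 0.23, adjusted p = 0.000826), and BMP1, a protease that trims procollagens (log2 difference -1.20 ± 0.15, adjusted p = 0.000722), were also lower in FSB than in F.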
